A study of Mus musculus with 4 samples.

Results

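The genes described here encode the enzymes that cut the extracellular matrix and the proteins that hold those enzymes in check. They were chosen by name, as every gene probe on the array named Mmp with a number, Adamts with a number, or Timp1 to Timp4. The array carried 43 such gene names on 72 probes, among 27745 gene names in all. Each gene was read from its brightest probe. A gene counted as detected when its spots were well above background, by the flag of the scanner software, on both arrays of a comparison in at least 1 genotype. Of the 43 genes, 27 were detected in both comparisons, and 15731 of all gene names were.

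The RNA came from mouse embryonic fibroblasts (MEFs), connective-tissue cells grown out of embryos, in logarithmic growth with no further treatment. One comparison set CycG1-/- MEFs (G1KO), whose protein coding exons of Ccng1 had been removed, against CycG1+/+ (WT) MEFs. The other set CycG2-/- MEFs (G2KO) against CycG2+/+ (WT) MEFs. Each comparison had a WT of its own, so there were 4 RNAs and no control was shared. The strain was given as C57BL/6J for every culture, although another field of the labels gave C57BL/7J for the G2KO comparison. Each comparison had 1 knockout and 1 WT culture, hybridised together on 2 arrays with the dyes Cy5 and Cy3 exchanged. No p-value is therefore given, and every ± below is the technical SD between the arrays of 1 pair. The knockout MEFs were described as coming from female embryos, while the litter of each culture and the sex of the WT embryos were not given in the sources used here.

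Matrix metalloproteinases (MMPs) are zinc-dependent enzymes, most of them secreted as inactive proenzymes, that cut collagens, proteoglycans and other matrix proteins. ADAMTS proteases are secreted zinc enzymes with thrombospondin repeats, some of which process procollagen while others cleave the large proteoglycans aggrecan and versican. The tissue inhibitors of metalloproteinases (TIMPs) bind the active site of these enzymes. Fibroblasts are a main source of all of these families, and many Mmp genes are induced there by cytokines and by the transcription factor AP-1.

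The targeted genes were examined before any member. Ccng1 (chromosome 11, 40592348 to 40592407, mm8) had a log2 ratio of knockout over WT of -6.67 ± 0.13 in the G1KO comparison. Ccng2 (chromosome 5, 94351052 to 94351111) had a log2 ratio of 0.09 ± 0.27 in the G2KO comparison, so the level at this probe did not show the loss that the label names. The RNA is therefore called the RNA labelled G2KO. Whether the probe reads a part of the transcript that the targeting removed was not analysed here. The paper reported genotyping of the G2KO MEFs by RT-PCR of their mRNA with CycG2 primers. Ccng1 itself was higher in the RNA labelled G2KO, by 2.67 ± 0.03. Xist was higher in the knockout RNA by 7.54 and 7.24 in the G1KO and G2KO comparisons, and the Y-linked Eif2s3y was lower at -6.55 and -5.82, so the knockout and WT cultures also differed in sex-linked transcripts. All 10 fibroblast markers examined were above background in every RNA. The macrophage markers Ptprc, Adgre1, Itgam and Aif1 were not above background on both arrays in any RNA, nor were the endothelial Pecam1, Cdh5 and Tie1 or the muscle Myf5 and Des. Other markers of these cells were measured: Cd68 and Actc1 were above background in every RNA, Csf1r and Kdr in both RNAs of the G1KO comparison, and Lyz2 in both RNAs of the G2KO comparison and in the other WT. The log2 intensity of Kdr was 8.05 and 7.95 in G1KO against 7.95 and 7.94 in its WT, and that of Lyz2 was 8.72 and 8.69 in the RNA labelled G2KO, at a log2 ratio of -0.39 ± 0.02. The endothelial Emcn was called lower in G1KO, at 6.66 against 9.30 in its WT and a log2 ratio of -2.65 ± 0.08, and the summed intensity of the 6 endothelial markers was 618 to 622 in G1KO and 1130 to 1150 in its WT. The 9 mesothelial markers were all above background in both RNAs of the G1KO comparison, where 7 were lower in G1KO and 1, Krt19, was higher. Their summed intensity was 54000 to 63300 in G1KO and 231000 to 287000 in its WT. In the G2KO comparison 3 of the 9 were detected. Msln was called higher at 1.60, Krt19 was called lower at -1.40 and Krt18 was at -0.28. The sums were 4010 to 4350 in the RNA labelled G2KO and 1920 to 1980 in its WT. Of the 10 fibroblast markers 6 were called lower in the RNA labelled G2KO, with summed intensities of 319000 to 470000 against 824000 to 860000 in its WT. In G1KO 1 of the 10, Dcn, was called lower and 2, Pdgfrb and Lum, higher. The sums there were 359000 to 520000 in G1KO and 646000 to 661000 in its WT. Of the 9 neural and glial markers, Sox2 and Nes were called higher in the RNA labelled G2KO, by 5.59 and 3.37. Nes was also called higher in G1KO, by 2.34, where Sox2 was not detected. The part of these differences in the values below was not tested, and fewer cells of a type cannot be told apart from less RNA per cell.

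Calls were made at a 2-fold change, with a log2 ratio of 1 or more in size reached in 1 direction by both arrays of a pair. Of the 27 proteases and inhibitors, 6 were called in G1KO, of which 5 were lower and 1 was higher. Over all genes detected in both comparisons 6.41% were called in G1KO, 4% lower and 2.4% higher. In the RNA labelled G2KO 7 were called, 6 lower and 1 higher, where 7.47% of all genes were called, 4.92% lower and 2.55% higher. Adamts5 was called lower in both comparisons, 5 members were called in G1KO alone and 6 in the RNA labelled G2KO alone. None was called in opposite directions. Over all genes 0.979% were called alike in both comparisons, 1.14% in opposite directions and 11.8% in at least 1, against 12 of the 27 members. The median log2 ratio of the members was -0.41 in G1KO against -0.16 in the RNA labelled G2KO, where all genes had medians of 0.00 and -0.01. Both genotypes were well above background on all 4 arrays for 22 of the 27.

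**Figure D1:**
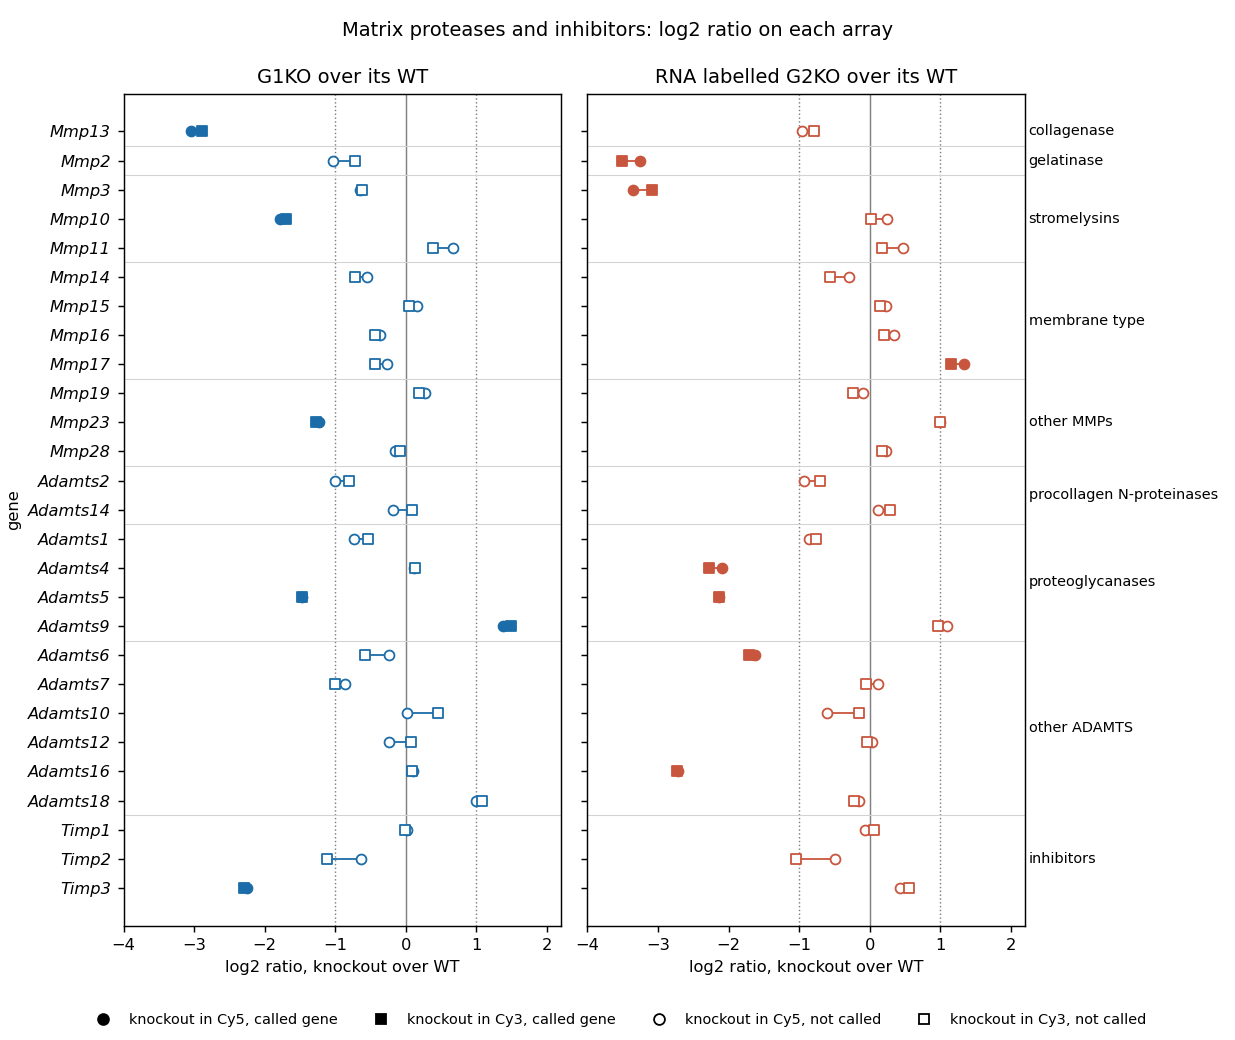
Log2 ratio of knockout over WT for the 27 detected proteases and inhibitors, in rows by role, with the G1KO comparison on the left and the RNA labelled G2KO on the right. Circles are arrays with knockout RNA in Cy5, squares those with it in Cy3, filled symbols are called genes and dotted lines mark a log2 ratio of 1 in size. The filled symbols stand mostly left of 0, and Adamts5 is the row filled in both panels.

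Mmp13 was the sole collagenase detected in both comparisons. Its enzyme cuts fibrillar collagen in cartilage, bone and wounds, and the probe is at 7282762 to 7282821 of chromosome 9, plus strand. The log2 intensity was 9.63 and 9.74 in the WT of the G1KO comparison and 6.58 and 6.84 in G1KO. On the same scale it was 6.95 and 7.16 in the WT of the G2KO comparison and 5.99 and 6.38 in the RNA labelled G2KO. The WT of the G1KO comparison was thus the high sample, and the other 3 RNAs lay well under it. Mmp13 was lower in G1KO by 7.82-fold, with log2 ratios of -3.04 and -2.89 on the individual arrays. In the G2KO comparison neither array read the knockout RNA well above background, and Mmp13 was at least 1.83-fold lower there, with a measured log2 ratio of -0.87 ± 0.12. Both values depend on how background is removed, since the log2 ratios computed by the scanner software were -4.02 and -4.51 in the G1KO and G2KO comparisons.

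Of the gelatinases, which degrade denatured collagen and the collagen of basement membranes, Mmp2 was detected in both comparisons. It was read on chromosome 8 at 95742069 to 95742128, plus strand. Its log2 intensity was 13.71 and 13.37 in the WT of the G2KO comparison against 10.45 and 9.86 in the RNA labelled G2KO. Mmp2 was thus 10.4-fold lower there, at a log2 ratio of -3.38 ± 0.17. In the G1KO comparison the log2 intensity was 12.69 and 12.39 in WT and 11.66 and 11.67 in G1KO. The ratio of -0.88 ± 0.22 there was past 2-fold on the array with G1KO in Cy5 and not on the other, so Mmp2 was not called. The RNA labelled G2KO was the lowest of the 4 RNAs. Mmp9, the other gelatinase, was detected in the G2KO comparison alone, through its WT. The knockout RNA was not well above background, and Mmp9 was at least 2.04-fold lower there, with log2 ratios of -1.07 and -0.99.

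The stromelysins split between the comparisons. Mmp3, stromelysin 1, which cuts proteoglycans and activates other proMMPs, had log2 intensities of 9.75 and 9.90 in the WT of the G2KO comparison and 6.40 and 6.81 in the RNA labelled G2KO. It was 9.31-fold lower, at a log2 ratio of -3.22 ± 0.19, while the scanner's ratio was -4.89. In the G1KO comparison it stood at 8.41 and 8.48 in WT and 7.76 and 7.87 in G1KO, a log2 ratio of -0.63 ± 0.03 that was not called. Both WT cultures were thus above both knockout cultures. Mmp10, stromelysin 2, a close relative of Mmp3, showed the other pattern. For Mmp10 the log2 intensity was 8.01 and 8.15 in the WT of the G1KO comparison and 6.23 and 6.45 in G1KO, a log2 ratio of -1.73 ± 0.06 and a 3.33-fold lower level, while the scanner's ratio was -3.14. It was 6.35 and 6.44 in the WT of the G2KO comparison and 6.60 and 6.46 in the RNA labelled G2KO, with a ratio of 0.13 ± 0.16, and that WT was well above background on 1 of 2 arrays. The WT of the G1KO comparison was thus the high sample for Mmp10, as it was for Mmp13. Mmp11, stromelysin 3, an MMP activated inside the cell by furin, was at 0.52 ± 0.20 in G1KO against 0.33 ± 0.21 in the RNA labelled G2KO and was called in neither.

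Mmp3, Mmp10 and Mmp13 lie in a cluster of 8 Mmp genes on chromosome 9, whose probes span 414.6 kb on mm8. The other 5 genes of the cluster, Mmp12, Mmp1a, Mmp8, Mmp20 and Mmp7, were not detected in both comparisons, and Mmp8 was detected in the G1KO comparison alone. No other gene had a probe inside the cluster. In the 1 Mb on each side 23 other probes were detected, of which 0 were called in G1KO against 3 in the RNA labelled G2KO. Those 3 were both probes of Pdgfd, higher by 1.15 ± 0.03 and 1.26 ± 0.12, and 1 of 2 probes of Birc3, at -2.88. The calls within the cluster were thus not shared with detected neighbours in G1KO. Within the cluster all 4 genes detected in the G1KO comparison were below their WT on both arrays, with Mmp10 and Mmp13 called and Mmp3 and Mmp8 not, Mmp8 being at -0.25 ± 0.13. In the RNA labelled G2KO Mmp3 was the one called of the 3 detected there.

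**Figure D2:**
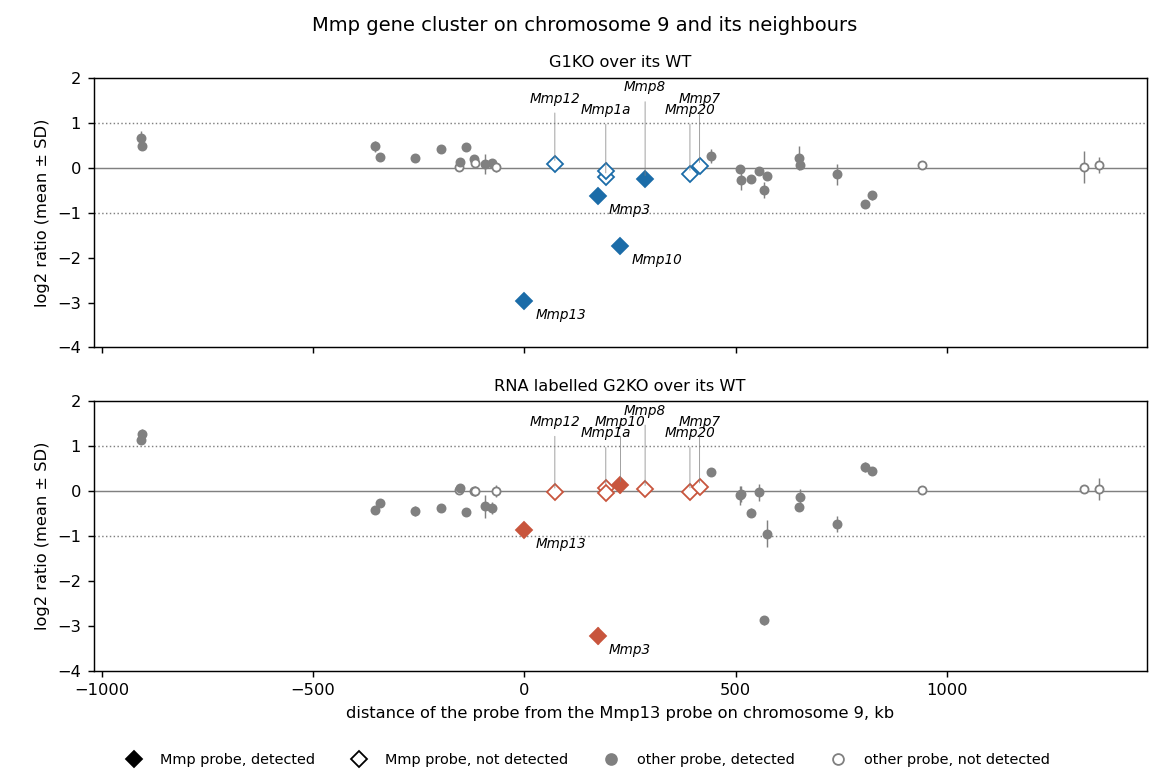
Log2 ratio of knockout over WT (mean ± SD of 2 arrays) of every probe in the Mmp cluster of chromosome 9 and in the 1 Mb on each side, against its distance from the Mmp13 probe in kb. Diamonds are Mmp probes, grey circles other genes, open symbols were not detected. Mmp13 and Mmp10 lie below -1 in the upper panel, Mmp3 in the lower one.

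The promoters of these 3 genes are shown because they were the only ones of the 17 members with a RefSeq promoter that held the AP-1 motif TGANTCA. They were chosen after their values were seen. Promoter windows of 250 bases before to 50 bases after each annotated start were searched on both strands, and 7.81% of 32851 windows of that length held the motif. It began 46, 63 and 35 bases before the start of Mmp3, Mmp10 and Mmp13. The TATA motif TATAAA began 7, 29 and 16 bases before the start and overlapped no AP-1 motif. It was found in 4 of the 17 members, the fourth being Adamts1, and in 13.6% of all windows. The sequence GAGGAA, searched as a form of the site of ETS transcription factors, was found in 1 of the 17, Mmp10, and in 28.3% of all windows. Other forms of that site were not searched, so its absence elsewhere was not shown. The last 150 bases before each start are printed 5′ to 3′ from RefSeq on GRCm38.p6, at chr9:7445672-7445821, chr9:7502192-7502341 and chr9:7272364-7272513, all on the plus strand, with the AP-1 motif in capitals.
Mmp3: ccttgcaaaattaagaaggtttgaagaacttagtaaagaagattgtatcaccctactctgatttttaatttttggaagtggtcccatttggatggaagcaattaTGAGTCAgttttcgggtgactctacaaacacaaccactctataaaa
Mmp10: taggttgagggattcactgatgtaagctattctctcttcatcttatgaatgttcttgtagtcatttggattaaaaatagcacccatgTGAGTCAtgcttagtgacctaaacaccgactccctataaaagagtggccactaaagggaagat
Mmp13: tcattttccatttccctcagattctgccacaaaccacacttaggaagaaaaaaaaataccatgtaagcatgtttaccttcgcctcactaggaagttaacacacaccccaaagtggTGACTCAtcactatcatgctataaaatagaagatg
The 3 promoters held the same AP-1 motif, while Mmp10 and Mmp13 were called in G1KO and Mmp3 was called in the RNA labelled G2KO.

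The regulators listed were AP-1 subunits, the transcription factors Ets1, Ets2 and Runx2, and cytokines and growth factors. Of these 17 genes 14 were detected in each comparison, and 1 was called in G1KO and 2 in the other comparison. Over all genes detected in a comparison 6.94% were called in G1KO, against 7.57% in the RNA labelled G2KO. In G1KO Il6, which encodes an inflammatory cytokine, was the only one called, at -1.87 ± 0.03. In the RNA labelled G2KO Fosl1, an AP-1 subunit, was called higher at 1.31 ± 0.02, and Tgfb3, a growth factor that controls matrix production, was called lower at -3.21 ± 0.01. Among the other AP-1 subunits Fos stood at 0.03 and -0.70 in the comparisons and Jun at 0.51 and -0.48. Il1a, Il1b and Tnf were not above background in any RNA. The median of the list was 0.00 in G1KO against -0.07 in the RNA labelled G2KO.

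Of the membrane-type MMPs, which cleave matrix at the cell surface, 4 were detected in both comparisons and 1 was called. Mmp17, anchored by a lipid tail, was higher in the RNA labelled G2KO by 2.36-fold, with log2 ratios of 1.33 and 1.15 on the individual arrays. The probe stood at a log2 intensity of 8.29 and 8.37 in the WT of that comparison and 9.62 and 9.52 in the knockout RNA, against 9.25 and 9.42 in the other WT and 8.98 and 8.98 in G1KO. The WT of the G2KO comparison was thus the lowest of the 4 RNAs, and G1KO and its WT differed by -0.35 ± 0.12. A fainter probe of Mmp17 was called as well, at 1.16. Mmp14, the membrane enzyme that activates proMMP2, was at -0.63 ± 0.12 in G1KO against -0.43 ± 0.19 in the RNA labelled G2KO, and its log2 intensity lay between 14.96 and 15.89 in every RNA. It was below its WT on all 4 arrays but never by 2-fold. Mmp16 was at -0.41 ± 0.05 and 0.27 ± 0.10, and Mmp15 at 0.10 ± 0.08 and 0.19 ± 0.07.

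Of the MMPs of other kinds, 3 were detected and 1 was called. Mmp23, a membrane-tethered enzyme that lacks the usual cysteine switch, was read on chromosome 4 at 154495068 to 154495127, minus strand. The log2 intensity of Mmp23 was 9.81 and 9.84 in the WT of the G1KO comparison and 8.58 and 8.56 in G1KO, and it was called lower at -1.25 ± 0.03, or 2.39-fold. It was 7.75 and 7.77 in the WT of the G2KO comparison and 8.75 and 8.77 in the RNA labelled G2KO. The log2 ratio there was 0.999 with Cy5 on the knockout RNA, just under the threshold, so the opposite change was not called at 2-fold, although it was called with no background correction and by the scanner's ratio. The WT cultures lay further apart than either knockout from its WT, the WT of G2KO minus the WT of G1KO being -2.07 on the log2 scale. The remaining members, Mmp19 at 0.23 ± 0.06 and -0.16 ± 0.10 and Mmp28 at -0.12 ± 0.06 and 0.20 ± 0.04, were called in neither comparison.

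The procollagen N-proteinases remove the amino propeptide from fibrillar procollagens before fibrils form. Adamts2, the main enzyme for procollagen I, was below its WT in each comparison by less than the call required, at -0.91 ± 0.14 in G1KO against -0.82 ± 0.16 in the RNA labelled G2KO. Fainter detected probes of Adamts2 were at -0.13, -0.88 and -0.29 in G1KO and at -0.23 in the RNA labelled G2KO. By the brightest probe, the level of Adamts2 differed far more between the comparisons than within them. The log2 intensity was 12.24 and 12.00 in the WT and 11.24 and 11.19 in G1KO, against 7.95 and 7.83 in the WT and 7.02 and 7.12 in the knockout RNA of the G2KO comparison. The WT cultures differed by -4.23 on the log2 scale, the widest gap between the WT cultures of any member. Adamts14 was at -0.05 ± 0.19 and 0.21 ± 0.12. Adamts3 was detected in the G1KO comparison alone, at -0.28.

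The proteoglycan-cleaving ADAMTS enzymes held Adamts5, the one member called in both comparisons. The gene encodes aggrecanase 2 and was read on chromosome 16 at 85751628 to 85751687, minus strand. Its log2 intensity was 15.12 and 15.04 in the WT and 13.65 and 13.56 in G1KO, and 13.29 and 13.26 in the WT and 11.15 and 11.13 in the RNA labelled G2KO. The log2 ratio was -1.48 on each array of the G1KO pair and -2.14 on each of the other, which are 2.78-fold and 4.40-fold lower. Each knockout was thus below its own WT, although the WT of the G2KO comparison was no higher than G1KO. With median centring in place of loess the G1KO call of Adamts5 was lost, at a mean of -1.44, and no member was called alike in both comparisons. With no background correction, by the scanner's ratio and in the series table, 3 members were, Adamts5, Adamts9 and Mmp13. A fainter probe of Adamts5 was called lower in both comparisons too, at -1.71 and -1.41. Adamts1, its neighbour 67.6 kb away and a protease of versican and aggrecan, was at -0.63 ± 0.14 and -0.81 ± 0.07, below its WT on all 4 arrays and not called.

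Adamts4, aggrecanase 1, was called in the RNA labelled G2KO alone. Its log2 intensity was 9.94 and 10.10 in the WT of that comparison, 7.86 and 7.83 in the knockout RNA, 7.80 and 7.69 in the other WT and 7.91 and 7.83 in G1KO. A single WT was high and the other 3 RNAs did not differ by 2-fold, and the log2 ratio in the RNA labelled G2KO was -2.18 ± 0.13, against 0.12 ± 0.02 in G1KO. Adamts9, which cleaves versican during development, was the member called higher in G1KO. Its log2 intensity rose from 8.34 and 8.28 in WT to 9.72 and 9.77 in G1KO, a log2 ratio of 1.43 ± 0.08 and a 2.70-fold higher level. In the G2KO comparison it was 7.80 and 7.81 in WT and 8.90 and 8.77 in the knockout RNA, and the ratio of 1.03 ± 0.09 was past 2-fold on 1 of 2 arrays. Both knockouts were above both WT cultures. The call rests on the brightest probe, since 2 fainter probes of Adamts9 were at 0.67 and 0.25 in G1KO, and the mean of its probes was 0.78. Adamts8, of the same clade, was detected in the G2KO comparison alone, at least 1.54-fold lower in the knockout RNA.

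Among the other ADAMTS genes, 2 of 6 were called, both lower in the RNA labelled G2KO. Adamts16 (chromosome 13, 71195642 to 71195701, minus strand) had a log2 intensity of 9.21 and 9.37 in the WT of the G2KO comparison and 6.49 and 6.64 in the knockout RNA, a log2 ratio of -2.72 ± 0.01 and a 6.59-fold lower level, while the scanner's ratio was -4.44. The G1KO comparison held it near background, at 6.30 and 6.27 in WT and 6.40 and 6.35 in G1KO. Adamts6, a close paralogue of the microfibril-associated Adamts10, had a log2 intensity of 8.69 and 8.83 in WT and 7.06 and 7.11 in the RNA labelled G2KO, or 3.18-fold lower at -1.67 ± 0.06, while the scanner's ratio was -2.39. In the G1KO comparison it was 8.11 and 8.27 in WT and 7.88 and 7.69 in G1KO, at -0.41 ± 0.24. Adamts10 itself was at 0.23 ± 0.31 and -0.38 ± 0.32. Adamts7 and Adamts12, which both degrade cartilage oligomeric matrix protein, were at -0.94 ± 0.10 and -0.08 ± 0.22 in G1KO and at 0.03 ± 0.11 and -0.01 ± 0.05 in the RNA labelled G2KO. Adamts18 was above background in G1KO and not in its WT, and it was at least 2.06-fold higher there. It was not called, because the log2 ratio on the array with G1KO in Cy5 was just under 1, and in the G2KO comparison it was at -0.18 ± 0.05, with the knockout RNA below background. Adamts7, Adamts10, Adamts12 and Adamts18 were called in neither comparison.

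The inhibitors differed from each other. Timp3, the TIMP that stays bound to the matrix and also inhibits ADAMTS enzymes, was read on chromosome 10 at 85778750 to 85778809, plus strand. Its log2 intensity was 16.81 and 16.28 in the WT of the G1KO comparison and 14.56 and 13.98 in G1KO, a log2 ratio of -2.27 ± 0.03 and a 4.84-fold lower level. In the G2KO comparison it was 14.11 and 14.04 in WT and 14.55 and 14.59 in the knockout RNA, at 0.49 ± 0.08. The WT of the G1KO comparison was thus the high sample, and G1KO did not differ by 2-fold from either RNA of the G2KO comparison. Timp1, a soluble inhibitor encoded on the X chromosome, was at 0.00 ± 0.02 and -0.00 ± 0.09, with log2 intensities of 15.03 to 15.28 in the 4 RNAs. It had the narrowest range of levels of any member, 0.13 on the log2 scale. Timp2, which takes part in the activation of proMMP2 by MMP14, was at -0.88 ± 0.34 and -0.77 ± 0.38. Its ratio was -0.64 in G1KO and -0.50 in the other comparison where Cy5 marked the knockout, but -1.12 and -1.04 after the dyes were exchanged, the widest shift with dye of any detected inhibitor. Timp4 was detected in the G1KO comparison alone, at -0.08.

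By their brightest probe, the other genes were not detected in either comparison or in 1 of them. Those detected in G1KO alone were Adamts3, Mmp8, Mmp24 and Timp4, and in the G2KO comparison alone Adamts8 and Mmp9, and none of the 6 was called. The 10 detected in neither were Adamts13, Adamts15, Adamts19, Adamts20, Mmp12, Mmp1a, Mmp20, Mmp21, Mmp25 and Mmp7. A fainter probe of Adamts20 was above background on both arrays in G1KO, at a log2 ratio of 0.22 ± 0.15. They include enzymes typical of other cells, such as the macrophage elastase gene Mmp12 and the enamel protease gene Mmp20.

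The log2 ratio was below 0 in both comparisons for 10 of the 27 members and above 0 in both for 3, against 25.3% and 23.7% of all genes. Its sign differed for 14 members, or 51.9%, and for 51% of all genes. Adamts9 was the furthest above 0 in both, at 1.43 and 1.03, and Adamts5 was below -1 in both. Mmp2 and Mmp3 were far below their WT in the RNA labelled G2KO and below it by less than the call required in G1KO. Mmp13 was called lower in G1KO and not in the RNA labelled G2KO. The latter RNA was not above background for Mmp13, which was at least 1.83-fold lower there. No test of the difference between the comparisons was possible with 1 culture per genotype.

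**Figure D3:**
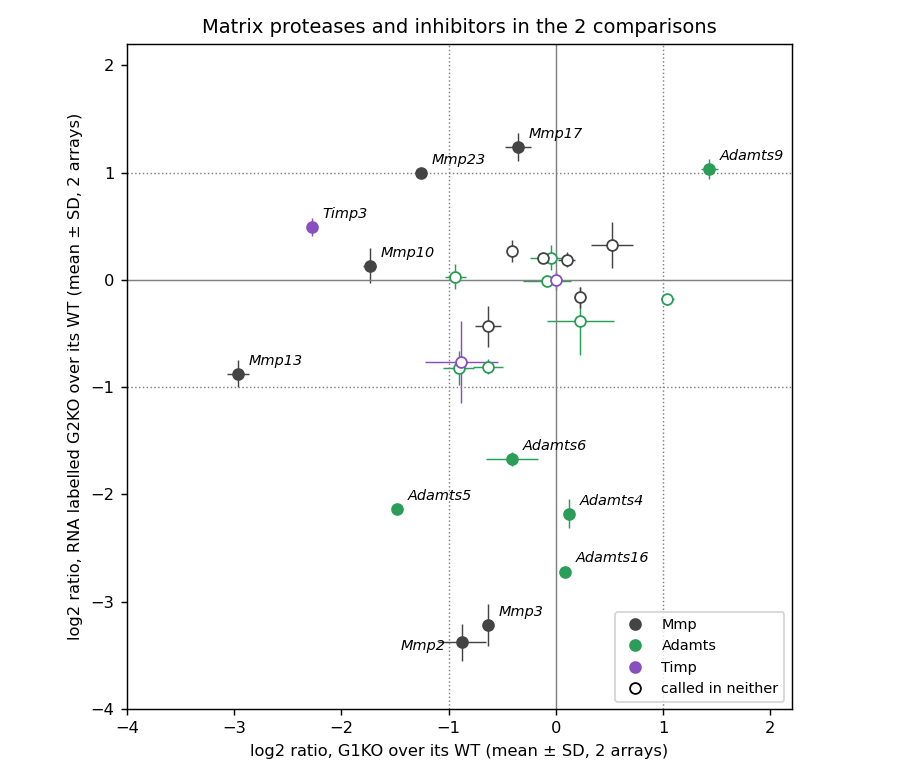
Mean log2 ratio of the 27 members in the G1KO comparison (horizontal) against that in the RNA labelled G2KO (vertical), with the SD of 2 arrays as bars. Filled points are called in at least 1 comparison and are named, and dotted lines mark a log2 ratio of 1 in size. Adamts5 lies beyond the lines in the lower left, with -1.48 and -2.14, while Timp3, Mmp10 and Mmp23 lie left of them and above 0.

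The level of the same probe across the 4 RNAs showed which of them stood apart. For 12 of the 27 members the WT cultures themselves lay at least 2-fold apart, against 13.3% of all genes detected in both comparisons. Of these 12, 5 were higher in the WT of the G2KO comparison and 7 in the WT of the G1KO comparison. The knockout RNAs lay at least 2-fold apart for 7 members, a count for which no share of all genes is given here. A single RNA stood at least 2-fold from each of the others, which lay within 2-fold of each other, for 5 members and for 4.44% of all genes. That RNA was a WT in all 5. It was the WT of the G1KO comparison for Timp3, Mmp13 and Mmp10, each higher than the nearest RNA by 1.97, 2.62 and 1.55 on the log2 scale. The same pattern held for 1.06% of all genes. It was the WT of the G2KO comparison for Adamts16 and Adamts4, by 2.72 and 2.16, and for 0.814% of all genes. A knockout RNA stood apart in this way for 0 of the 27 members and for 1.96% of all genes. Levels below background, such as that of Mmp13 in the RNA labelled G2KO, entered these counts as measured. The lower levels of Mmp10, Mmp13 and Adamts16 lay near background, and there the distance between RNAs depends on how background is removed. By the scanner's ratio Mmp13 was at -4.51 in the G2KO comparison. The count of 5 members is given for the main processing alone. Levels across arrays rest on a normalisation between arrays, and the count of 12 was the same under quantile normalisation.

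**Figure D4:**
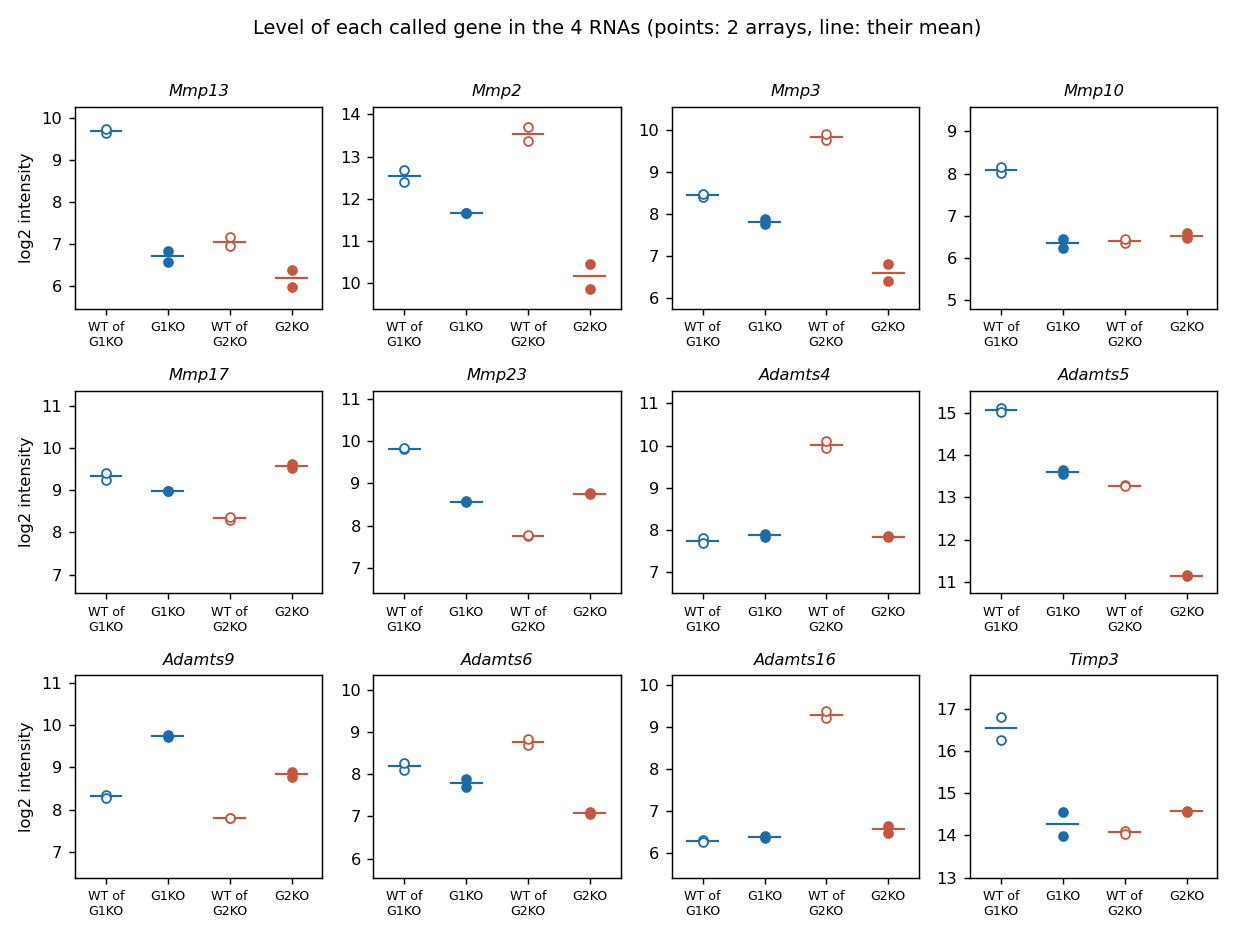
Log2 intensity of the 12 members called in at least 1 comparison, in the WT of G1KO, G1KO, the WT of G2KO and the RNA labelled G2KO. Points are 2 arrays, lines their mean, and every panel spans the same log2 range, so that heights compare within a gene and not between genes. Timp3, Mmp10 and Mmp13 are high in the WT of G1KO alone, and Adamts4 and Adamts16 in the WT of G2KO alone.

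Other genes that act with the matrix proteases are given by list. Plasminogen activation yields the plasmin that activates several proMMPs. In G1KO 0 of 7 detected genes of this list were called, and the activator genes Plau and Plat stood at 0.98 ± 0.23 and 0.90 ± 0.07. In the RNA labelled G2KO 2 of 6 detected genes were called, Plat lower at -1.74 ± 0.15 and Serpine2, an inhibitor of plasminogen activators, higher at 1.94 ± 0.01. Plau was at 0.06 ± 0.19 there.

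Of the proprotein convertases and other regulators, 3 of 8 were called in G1KO, all lower. They were Pcsk5 at -3.38 ± 0.01 and Pcsk6 at -2.72 ± 0.20, convertases that cleave proprotein precursors, and Spock2, a matrix proteoglycan known to affect MMP activation, at -1.32 ± 0.00. Furin, the convertase that activates the membrane-type MMPs, was at 0.50 ± 0.22. In the RNA labelled G2KO 0 of 7 were called, and Reck, a membrane inhibitor of MMPs, was at -1.03 ± 0.33. The list medians were -0.18 and -0.06.

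The astacin and ADAM metalloproteases had 1 of 14 called in G1KO, Adam9, a membrane sheddase, at -1.20 ± 0.02, and 2 of 14 in the RNA labelled G2KO. These were Adam19, another sheddase, at -2.33 ± 0.13 and Tll1, a procollagen C-proteinase, at -1.33 ± 0.05. The procollagen C-proteinase Bmp1 was at 0.28 ± 0.12 and -0.31 ± 0.15. Of the ADAMTS-like genes, which lack the protease domain, 1 of 4 was called in G1KO, Adamtsl3 at 1.37 ± 0.27, and 0 of 4 in the RNA labelled G2KO. Other proteases of the matrix had 4 of 8 called in G1KO. Dpp4 at -2.80 ± 0.14, Htra1 at -2.41 ± 0.06 and Prss23 at -1.99 ± 0.25 were lower, and Ctsk, the lysosomal collagenase cathepsin K, was higher at 1.42 ± 0.24. None of 7 was called in the RNA labelled G2KO. The medians of these 3 lists were 0.17, -0.16 and -0.44 in G1KO and -0.11, -0.04 and -0.47 in the RNA labelled G2KO.

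The matrix proteins that these enzymes cut moved more in the RNA labelled G2KO. There 7 of 11 detected genes were called, all lower, against 7.57% of all genes detected in that comparison. Largest in size were Col3a1 at -2.90 ± 0.14, Col1a2 at -2.31 ± 0.42, Col4a1 at -1.81 ± 0.12 and Col2a1 at -1.50 ± 0.02. In G1KO 2 of 11 were called, Dcn, the collagen-binding proteoglycan decorin, at -4.05 ± 0.12 and Col4a1 at -1.27 ± 0.03. Versican (Vcan), a substrate of Adamts1, Adamts4, Adamts5 and Adamts9, was at 0.81 ± 0.06 and 0.33 ± 0.01. The list medians were -0.55 and -1.34. Col1a1, Col1a2, Col3a1 and Dcn are also among the fibroblast markers, so the lists are not independent.

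**Figure D5:**
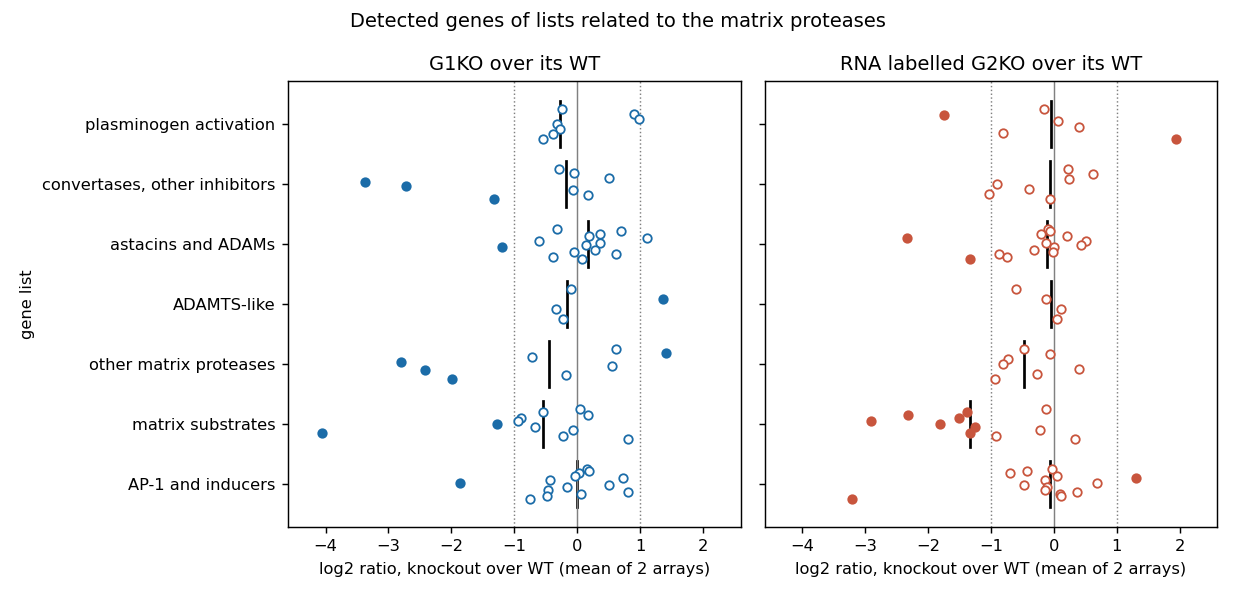
Mean log2 ratio of knockout over WT for the detected genes of 7 lists related to the matrix proteases, in G1KO on the left and in the RNA labelled G2KO on the right. Each point is a gene, filled where called, and black bars are list medians. The matrix substrates have their median at -0.55 on the left and at -1.34 on the right.

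Where a member had further detected probes, they gave 27 ratios to set beside that of the brightest probe. The sign was the same for 24 of them. The brightest probe was called in 5 of these, and the other probe was called alike in 3. The other pair were the fainter probes of Adamts9. Every position given for a probe is on mm8, as the array design has it, and the part of the transcript that each probe reads was not analysed here.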

How the data were processed

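Expression was measured in 4 RNAs on 4 Agilent whole mouse genome arrays of 2 colours. The second array of each comparison is a dye swap of the same RNAs and was counted as 1 replicate. The 4 arrays shared 1 slide and 1 scan. The spots were quantified by the authors with Agilent Feature Extraction, for which the file headers give version 10.5.1.1 and the submitters' processing notes 9.1. The authors' deposited intensity values are, per channel, the mean over a spot's pixels and the median over its surroundings, on a linear scale and uncorrected. The files as deposited also hold flags and a log10 ratio that the authors' software made after its own background and dye correction. The deposited series table holds the same log10 ratio turned to knockout over WT.

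Intensity was corrected with normexp (offset 50) in limma 3.58.1 (R 4.3.3), control and outlier spots were left out, each array was normalised by loess, and spots of a probe were averaged. Between 58.5% and 64% of 43379 gene spots per channel were well above background, and no spot was saturated. The number of arrays limits the precision. Levels are log2 intensity per channel after loess and Aquantile. Where a genotype was not above background on either array, the fold is a bound: the brighter mean over the dim mean, where each array's dim value is raised, if need be, to the faintest signal still flagged well above background. With 1 culture per genotype, no test was made. The normalised ratio and the call rule were tried on simulated data, with changes placed only in spots well above background. Changes near background, the levels across RNAs and the fold bounds were not simulated.

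The members, the lists and the call rule were chosen with earlier results of these data known. Every member is named, and of each list up to 4 called genes of largest size per comparison, besides genes named for their role. A gene of the plasminogen list is not reported here, and the list is shown without it. Of the 43 gene names, 38 matched RefSeq by accession. The alternatives were other background and loess settings, the scanner's ratio, the series table, filters, thresholds, single arrays and all probes.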

Additional observations from a re-analysis of the deposited data

Results flagged for a closer look

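For 11 of the 27 members both arrays of the G1KO pair lay on one side of 0 and both arrays of the other pair on the opposite side. With 1 culture per genotype these differences were not tested. The share of all genes that met this rule is not given here. By the sign of the mean ratio alone, the comparisons differed for 51.9% of the members and for 51% of all genes. The log2 ratio in G1KO minus that in the RNA labelled G2KO was 2.81 for Adamts16, 2.30 for Adamts4 and 1.22 for Adamts18, whose ratios in G1KO were the higher. It was -2.77 for Timp3, -2.25 for Mmp23, -1.87 for Mmp10 and -1.59 for Mmp17, whose ratios in G1KO were the lower. Smaller differences were found for Adamts10 at 0.61, Mmp19 at 0.39, Mmp16 at -0.68 and Mmp28 at -0.32. No member of these 11 was called in both comparisons.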

How the results depend on the processing

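Of the 13 called ratios of members, each recomputed under 12 alternatives, 145 of 156 values were still called, 11 were not, and 0 changed direction. This count takes each comparison by itself. Where both genotypes had to be above background on all 4 arrays, 22 members were left, with 4 called in G1KO (3 lower) and 6 in the RNA labelled G2KO, because Mmp10, Mmp13 and Adamts16 were dim in the comparison that had not called them. At a 4-fold threshold 6 were lost, with median centring those of Adamts5, Adamts9 and Mmp23 in G1KO and of Mmp17 in the RNA labelled G2KO, and with the mean of all probes that of Adamts9. Members called in G1KO numbered 6, and 12 at 1.5-fold and 2 at 4-fold. In the RNA labelled G2KO they numbered 7, and 12 with the scanner's ratio, with the series table and at 1.5-fold. The split of higher and lower calls there was 1 and 6, and 3 and 9 with the scanner's ratio, 3 and 7 with no background correction and 0 and 6 with median centring. In G1KO it was 1 and 5, and 2 and 5 with the scanner's ratio and with no background correction. Opposite calls numbered 0, but 1 with no background correction, at 1.5-fold, with the mean of the arrays and on the array with knockout RNA in Cy3, and 2 with the scanner's ratio and the series table. Calls in the same direction numbered 1, but 3 with no background correction, the scanner's ratio, the series table and the array with knockout RNA in Cy5, 0 with median centring and at 4-fold, 6 at 1.5-fold, and 2 with the mean of the arrays and on the array with knockout RNA in Cy3. The median log2 ratio of members in G1KO was -0.084 with no filter on dim probes, which takes in all 43, and -0.27 on the array with knockout RNA in Cy5. That in the RNA labelled G2KO was -0.25 with the scanner's ratio and the series table, -0.086 where both genotypes had to be above background, -0.094 on the array with knockout RNA in Cy5, and -0.0070 with no filter. The cause of these shifts was not tested, beyond the change in which genes or arrays enter. No paired analysis was possible because each group held 1 replicate, and with 1 culture per genotype no replicate could be left out. Signal over background limits Mmp3, Mmp10, Mmp13, Adamts16 and Adamts18, whose lower level lay near background. By the scanner's ratio and in the series table the called ratios of Mmp3, Mmp10, Mmp13, Adamts6 and Adamts16 were larger in size by over 1.5 times as folds, with values of -4.89, -3.14, -4.02, -2.39 and -4.44 by the scanner's ratio.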
